A study of Homo sapiens with 6 samples.

Results

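The mouse transcripts described here are ENSMUST00000103410 and ENSMUST00000103328, in the 5 count matrices of a single-cell RNA sequencing series that mixed human and mouse cells. They were selected on their total counts in mouse cells, the highest of Drop-seq in earlier results of these data, so their levels are a description and carry no test. They are 2 of 34725 mouse transcripts and of 81209 transcripts of both species in the matrices. ENSMUST00000103410 was given as Igkc when the transcripts were chosen and is called Igkc below, although no mouse annotation was used to check the name. ENSMUST00000103328 came without a name and is called the second transcript.

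Each library mixed the human line labelled JJN3 with the mouse line labelled 5TGMG1, both described as myeloma cell lines. The labelled variable was the number of PCR cycles, and no other treatment is labelled. The study's main text gives lower combined cycle numbers for its 10X libraries than the labels do. The study's methods count further cycles after a split. Drop-seq, in which a droplet joins a cell with a barcoded bead, gave libraries of 25, 30 and 35 cycles, and the 10X platform gave libraries of 30 and 35 cycles. All were read by nanopore sequencing, which can read a cDNA molecule along its length. By the study's methods more mouse than human cells were loaded for Drop-seq and equal numbers for 10X. The methods also state that on each platform amplified material was split before the last PCR cycles. Libraries of the same platform can therefore hold the same cells. Each group was 1 library, so no test between conditions was possible, and every interval below is a 95% interval of counting error only. Intervals of shares and ratios treat counts as independent, also where several counts came from 1 cell.

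Igkc encodes the constant region of the kappa light chain of antibodies. Plasma cells secrete antibodies, and a myeloma is a tumour of plasma cells that often keeps making 1 light chain in large amounts. A mature light chain mRNA carries a variable region, joined from gene segments when the B cell formed, next to the constant region. RNA that is abundant in a cell is also a sensitive marker of RNA that has left it, because it can be seen in droplets that held a cell of the other species or no cell.

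A count is 1 distinct molecular identifier (UMI), a random tag put on a molecule before amplification, for 1 transcript and 1 barcode. Counts were not divided by transcript length, since mouse lengths were not used here. The deepest barcodes were taken as cells, up to the number on the label, and a cell was called mouse or human when at least 90% of its counts were of that species. There were 590, 291 and 309 mouse cells in the Drop-seq libraries of 25, 30 and 35 cycles, and 806 and 881 in the 10X libraries of 30 and 35 cycles. Median counts per mouse cell were 282.5, 278 and 417 for Drop-seq and 117 and 171 in 10X. The smallest stored value was 1 at 25 cycles, 3 at 30 and 35 cycles of Drop-seq and 2 in 10X. A lower value in those libraries is therefore missing and not 0, and levels between these sets of libraries are not on 1 footing. The stored barcodes had 10 bases, and many were cells in several libraries: 454 and 457 cells of the 25-cycle library were cells at 30 and 35 cycles, 446 were cells in both the 30-cycle and the 35-cycle Drop-seq library, and 1541 were cells in both 10X libraries. Drop-seq and 10X libraries shared between 0 and 4.

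The labelled cell types were checked through human genes, since mouse genes had no names. In human cells of 10X, 10 of 10 plasma cell genes had counts at both cycle numbers, and a list of 17 immunoglobulin genes took 6.27% of human counts at 30 cycles and 10.2% at 35. In human cells of the 3 Drop-seq libraries, 1 of 10 plasma cell genes had counts, and all 9 immunoglobulin genes with a transcript in any matrix were at 0, the other 8 of the list having none. T cell genes with counts numbered 8, 4 and 5 of 10 there, against 1 and 0 in 10X. The human cells of Drop-seq thus went against the myeloma label on these lists. The study's text differs on the human line: its culture section and a legend on 10X name Jurkat, a T cell line, in place of JJN3. IGKC, the human counterpart of Igkc, had 0 counts in human cells of every library.

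Igkc was the most abundant mouse transcript in the mouse cells of all 3 Drop-seq libraries, and the second transcript came next in each. In the 25-cycle library Igkc had 6693 counts, 1.85% of the mouse counts in mouse cells (1.81 to 1.89). At 30 cycles it had 2652 counts, or 1.52% (1.46 to 1.57), and at 35 cycles 3443 counts, or 1.37% (1.32 to 1.41). In 10X the same transcript stood lower in the order, a direction that selection on the highest counts of Drop-seq favoured. It was 12th at 30 cycles, with 722 counts and a share of 0.640% (0.594 to 0.688), and 9th at 35 cycles, with 1565 counts and 0.863% (0.821 to 0.907). No neighbouring pair in this order had overlapping intervals, but the spread between libraries of 1 kind is not known.

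The second transcript followed Igkc closely in Drop-seq and less closely in 10X. It had 6195 counts at 25 cycles, a share of 1.71% (1.67 to 1.76), 2450 counts or 1.40% (1.35 to 1.46) at 30 cycles, and 3203 counts or 1.27% (1.23 to 1.32) at 35 cycles. In 10X it was 24th at 30 cycles with 476 counts, 0.422% (0.385 to 0.462), and 15th at 35 cycles with 1157 counts, 0.638% (0.602 to 0.676). Next in order in all 3 Drop-seq libraries was ENSMUST00000082421, at 1.35%, 1.25% and 1.14%. Leading in 10X were ENSMUST00000020488 at 30 cycles, with 1.63%, and ENSMUST00000019649 at 35 cycles, with 2.17%.

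The order of the libraries depended in part on the smallest stored values. When all libraries were cut to values of at least 3, the share of Igkc was 2.49% in the 25-cycle library and 1.10% and 1.74% in 10X at 30 and 35 cycles, while the Drop-seq libraries of 30 and 35 cycles stayed as they were. The 10X library of 35 cycles then stood above both of those. For the second transcript the shares became 2.30%, 0.605% and 1.20%, and its order did not change.

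**Figure D1:**
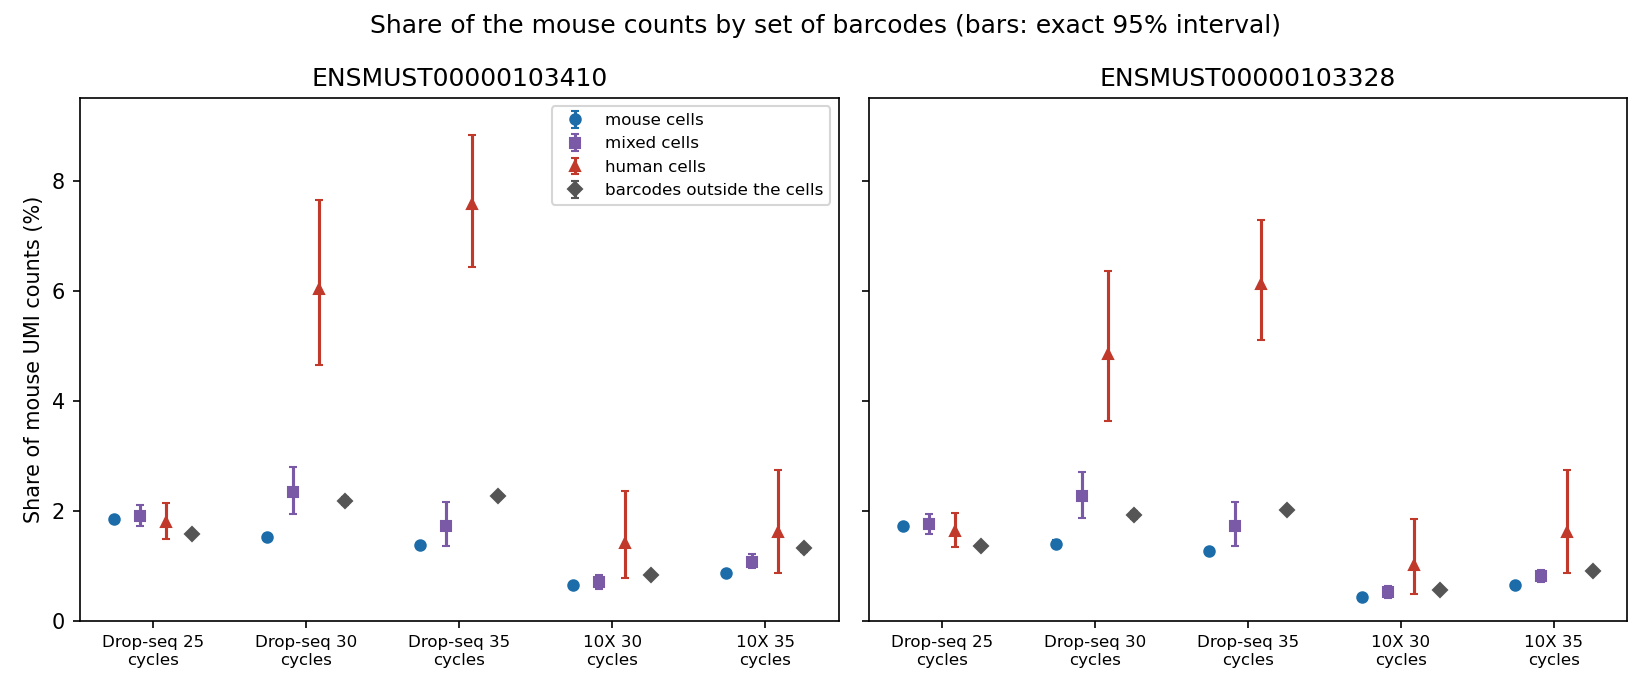
Share of the mouse UMI counts, in percent, taken by Igkc (ENSMUST00000103410, left) and the second transcript (ENSMUST00000103328, right) in each library, for mouse, mixed and human cells and for barcodes outside the cells. Bars are exact 95% intervals of counting error. Human cells of Drop-seq at 30 and 35 cycles stand highest, at 6.02% and 7.57% for Igkc.

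Most mouse cells of Drop-seq held Igkc, and fewer of those of 10X. Igkc was stored in 89.3%, 81.8% and 86.7% of mouse cells at 25, 30 and 35 cycles of Drop-seq, and in 36.6% and 59.9% at 30 and 35 cycles of 10X. Its median was 5, 7 and 9 counts per mouse cell in Drop-seq, with quartiles of 2 and 11, 4 and 12, and 5 and 16. The median in 10X was 0 at 30 cycles and 2 at 35 cycles, and 90% of cells had at most 3 and 4 counts. Cells without a stored value therefore occurred in every library.

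Means per mouse cell for Igkc were 11.3 counts (SD over cells 25.3), 9.11 (SD 8.34) and 11.1 (SD 9.10) in the Drop-seq libraries of 25, 30 and 35 cycles. They were 0.896 (SD 1.27) and 1.78 (SD 1.75) in 10X. For the second transcript the means were 10.5 (SD 23.8), 8.42 (SD 8.13) and 10.4 (SD 8.76) in Drop-seq, and 0.591 (SD 1.04) and 1.31 (SD 1.56) in 10X. The SD at 25 cycles was larger than the mean for both, while at 30 and 35 cycles of Drop-seq it was smaller. The highest cell of the 25-cycle library held 460 counts of Igkc and 431 of the second transcript. At 30 cycles no mouse cell held more than 51 and 49, and at 35 cycles no more than 49 and 50.

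**Figure D2:**
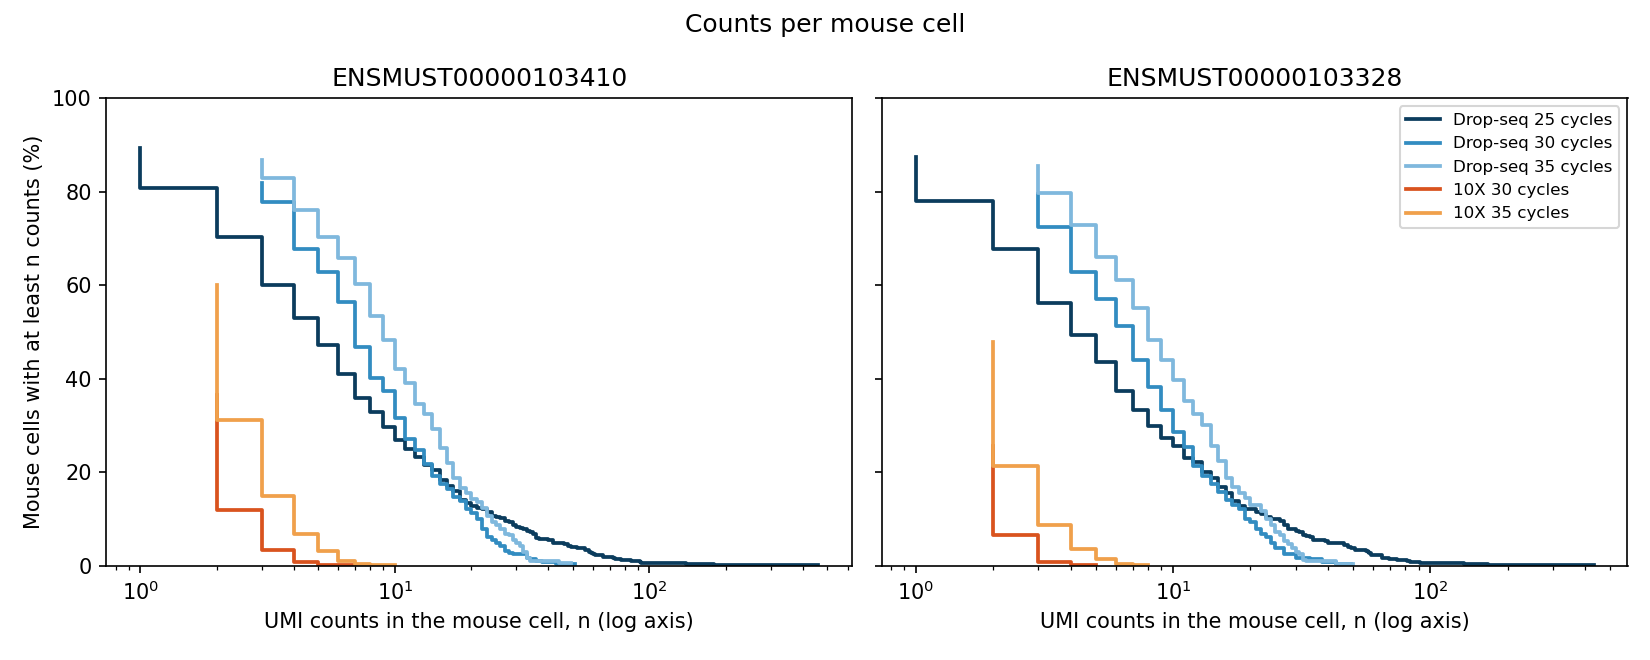
Percent of mouse cells (vertical axis) with at least n UMI counts (horizontal log axis) of Igkc on the left and the second transcript on the right, 1 line per library. The 25-cycle line runs out to 460 and 431 counts, whereas the 30-cycle and 35-cycle Drop-seq lines end between 49 and 51, and the 10X lines at 10 or below.

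To set cells of unlike depth side by side, each mouse cell was thinned at random to 100 counts, and shallower cells were left out (284 in 10X at 30 cycles, 0 elsewhere). After thinning, Igkc was found in 73.2% (69.5 to 76.8), 70.4% (64.8 to 75.6) and 75.4% (70.2 to 80.1) of mouse cells in the Drop-seq libraries of 25, 30 and 35 cycles. In 10X it was found in 33.7% (29.7 to 38.0) at 30 cycles and 50.4% (47.0 to 53.7) at 35. The second transcript was found in 66.8%, 71.1% and 70.6% in Drop-seq and in 23.8% and 39.4% in 10X. At equal totals the 3 Drop-seq libraries thus lay close together, and both 10X libraries lay below them. Thinning does not restore missing low values, so the unlike smallest stored values remain in these rates.

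Spread was measured by the Fano factor, the variance over the mean, which is 1 for pure counting when no low value is missing. Low values are missing in every library except that of 25 cycles, and thinning started from the stored values. In those libraries a Fano factor above 1 is therefore not by itself spread beyond counting. At 100 counts the Fano factor of Igkc was 2.88, 2.31 and 1.74 in the Drop-seq libraries of 25, 30 and 35 cycles and 1.44 and 1.37 in 10X. That of the second transcript was 3.34, 2.19 and 1.98, and 1.54 and 1.38. The 20 mouse transcripts nearest in mean had medians of 2.10, 2.56 and 1.84 in Drop-seq, and 1.56 and 1.36 around Igkc in 10X. Igkc exceeded 16 of these 20 at 25 cycles and 8, 5, 2 and 10 in the other libraries. In Drop-seq all 20 had lower means than Igkc, since no transcript was higher, so they are neighbours in level on 1 side. Their means at 25 cycles ran from 0.376 to 1.26, against 1.94 for Igkc and 1.81 for the second transcript. In Fano factor both transcripts lay within the range of these 20 in all 5 libraries. The coefficient of variation, SD over mean, was 1.01 and 0.987 at 30 cycles of Drop-seq, below the lowest of the 20 at 1.24. At 35 cycles it was 0.915 and 1.02, below 1.10, and elsewhere it lay within their range. No stored value of any transcript was above 53 at 30 cycles or 59 at 35 cycles of Drop-seq. The parts of this ceiling and of the unlike means in the low coefficients were not tested.

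The counts of both transcripts followed each other closely across mouse cells, more so in Drop-seq than in 10X. Across mouse cells, the Spearman correlation of their shares of the cell's mouse counts was 0.962 over 590 cells, 0.940 over 291 and 0.946 over 309 in the Drop-seq libraries of 25, 30 and 35 cycles. It was 0.798 over 806 cells and 0.844 over 881 in 10X. Cells of 1 library share its depth and base composition, and these values carry no test. Of the other mouse transcripts with at least 500 counts (81, 32, 57, 22 and 37 of them), the highest correlation with Igkc was 0.118, 0.171, 0.207, 0.111 and 0.079. Their medians were between -0.048 and 0.045.

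Cell by cell, the second transcript was hardly ever stored without Igkc. Of 515 mouse cells with the second transcript at 25 cycles all 515 held Igkc, as did 231 of 231 at 30 cycles and 263 of 264 at 35 cycles of Drop-seq. In 10X all 207 did so at 30 cycles and 420 of 422 at 35. The reverse held less often, since 12, 7 and 5 mouse cells of Drop-seq and 88 and 108 of 10X held Igkc alone. Those 10X cells lay near the smallest stored value: 88.6% and 79.6% of them held Igkc at 2 counts.

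Where both were stored, 62.7%, 51.5% and 49.1% of mouse cells in Drop-seq held exactly equal counts, and 75.8% and 68.8% in 10X. Counts within 1 of each other made up 84.1%, 78.4% and 78.7% for Drop-seq and 96.1% and 92.4% in 10X. Unequal cells mostly had more Igkc, in 187 cells against 5 at 25 cycles, 88 against 24 at 30 and 111 against 23 at 35. In 10X all unequal cells, 50 and 131, had more Igkc. Whether 1 molecule was counted on both transcripts was not tested, since the matrices hold no reads.

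Summed over mouse cells, the second transcript had 0.926 counts for each count of Igkc at 25 cycles (0.894 to 0.958), 0.924 at 30 (0.874 to 0.976) and 0.930 at 35 (0.886 to 0.976). These intervals treat the counts of both transcripts as independent. Both were stored together in most cells with either, so the intervals do not measure the error of the ratio. The 3 Drop-seq ratios lay close together. In 10X the ratio was 0.659 (0.586 to 0.741) at 30 cycles and 0.739 (0.685 to 0.798) at 35, both below Drop-seq. Within cells that stored both it was 0.888 and 0.872 in 10X, against 0.929, 0.939 and 0.936 in Drop-seq.

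**Figure D3:**
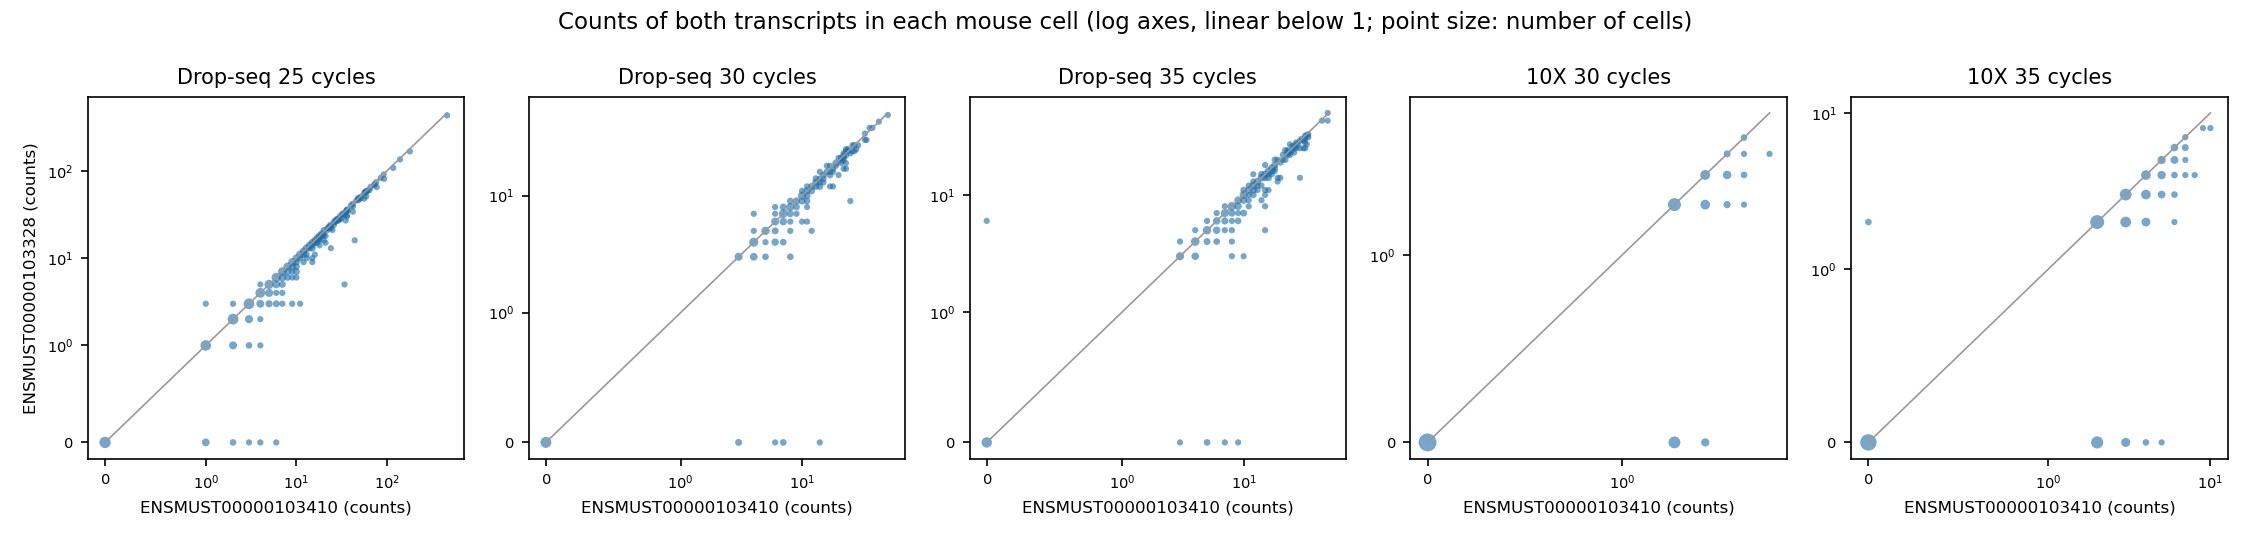
UMI counts of the second transcript (vertical) against those of Igkc (horizontal) in each mouse cell, 1 panel per library, on log axes that are linear below 1. Point area grows with the number of cells at that pair of counts, and the line marks equal counts. Points follow the line and reach 460 and 431 counts at 25 cycles, and those at 0 on the vertical axis are the 12, 7, 5, 88 and 108 cells with Igkc alone.

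By a rule that asked for at least 500 counts in every library, 8 other transcripts were compared with Igkc, and the most alike over mouse cells were ENSMUST00000082421, ENSMUST00000054220 and ENSMUST00000212796. Their mean Spearman correlations over 5 libraries were 0.088, 0.038 and 0.037. The second transcript had 476 counts in 10X at 30 cycles and so missed that minimum. With a minimum of 400, chosen after its values were seen, it was first of 11, with a mean of 0.898.

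Ensembl numbers within 100 of either transcript belong to 16 other identifiers in the matrices, of which 13 had counts in mouse cells. ENSMUST00000103418 had 6788 counts over the 5 libraries and ENSMUST00000103426 had 250, against 28556 for both members together. The remaining identifiers had 466 in all, with 214 for the highest. ENSMUST00000103418 was 6th among mouse transcripts in each Drop-seq library. Its correlation with the members across mouse cells was between 0.042 and 0.115, far below that between the members.

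The share of Igkc fell with the depth of the cell in 2 of the 3 Drop-seq libraries. Mouse cells were ordered by total counts and cut into 4 depth groups of nearly equal size. At 30 cycles the share of Igkc was 2.95% in the shallowest group (2.63 to 3.31), then 2.70%, 1.91% and 1.13% in the deepest (1.07 to 1.20). The 35-cycle shares were 2.65% (2.41 to 2.90), 2.22%, 1.88% and 0.971% (0.925 to 1.02). By contrast, the 25-cycle shares were 1.98% (1.81 to 2.17), 2.23%, 1.74% and 1.81% (1.76 to 1.87). Depth groups in 10X ran from 0.877% to 0.538% at 30 cycles and were 0.890%, 1.09%, 0.917% and 0.732% at 35.

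The second transcript had the same pattern. Its share went from 2.70% in the shallowest to 1.07% in the deepest group at 30 cycles and from 2.45% to 0.913% at 35, against 1.78% and 1.68% at 25 cycles. The missing low values bear on shallow cells in particular, because a stored value of at least 3 is a larger part of a small total. A ceiling bears on deep cells, since no stored value of any transcript was above 53 at 30 cycles or 59 at 35 cycles of Drop-seq. The parts of the missing low values and of this ceiling in the trend were not tested.

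**Figure D4:**
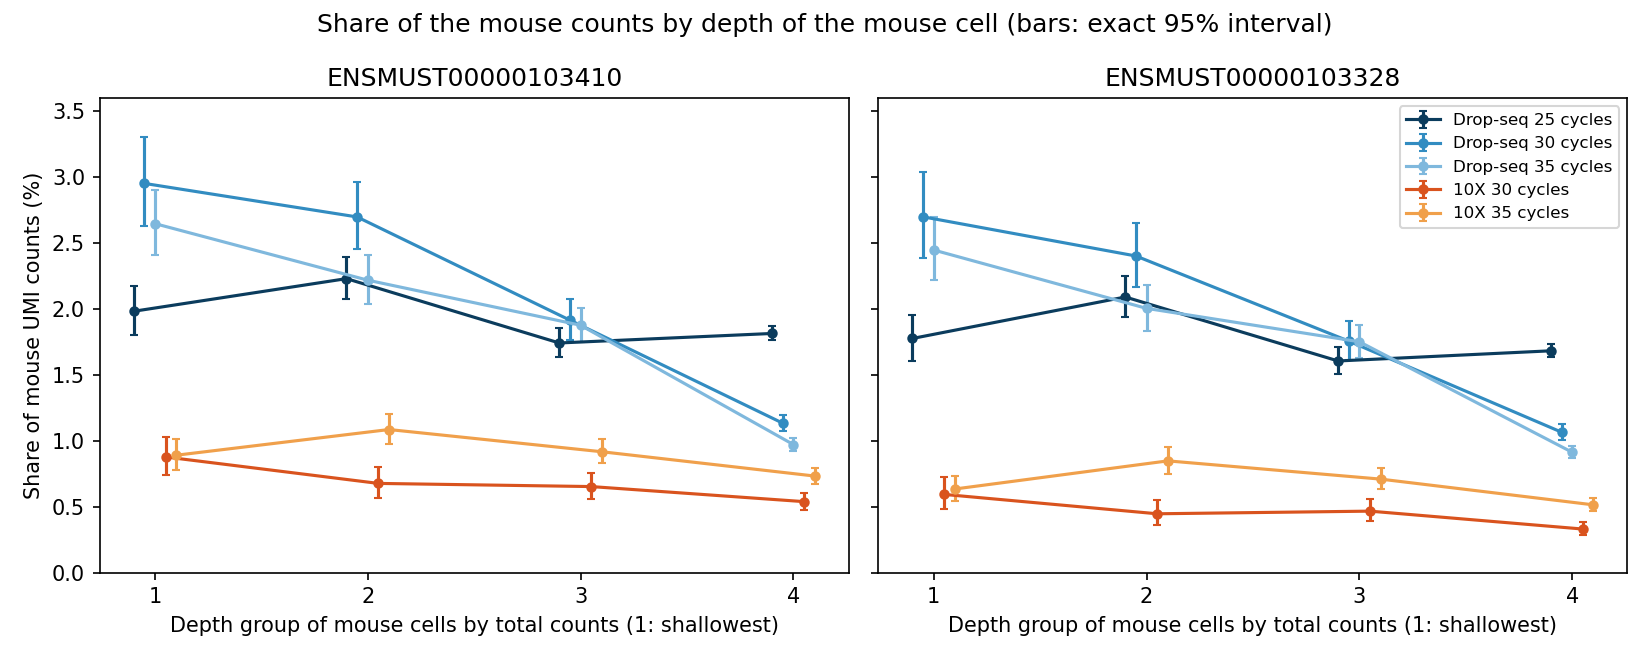
Share of the mouse UMI counts, in percent, taken by Igkc (left) and the second transcript (right) in 4 groups of the mouse cells ordered by total counts, 1 line per library, with exact 95% intervals of counting error. Lines of Drop-seq at 30 and 35 cycles fall from 2.95% to 1.13% and from 2.65% to 0.971% for Igkc, and the 25-cycle line stays between 1.74% and 2.23%.

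Large counts of Igkc were compressed at 30 and 35 cycles relative to 25 cycles in the same stored barcodes. A total of 253 barcodes were mouse cells at both 25 and 30 cycles. In those with 1 to 5 counts of Igkc at 25 cycles, the 30-cycle library held 1.55 counts for each 25-cycle count. This ratio was 0.861 for 6 to 10 counts, 0.587 for 11 to 20, 0.527 for 21 to 50 and 0.254 for 51 or more. The total counts of the same barcodes had ratios between 0.533 and 0.748 in these bins.

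At 35 cycles, over 268 such barcodes, the ratio for Igkc went from 1.87 to 1.14, 0.818, 0.613 and 0.285, while totals stayed between 0.740 and 1.14. The second transcript went from 1.25 to 0.253 at 30 cycles and from 1.69 to 0.278 at 35. Barcodes were binned by the 25-cycle count, which is also the denominator, so bins and ratios share a value. The ceiling itself does not depend on the bins. No stored value of any transcript was above 53 at 30 cycles or 59 at 35 cycles, whereas the 25-cycle library had 125 values over 60, the largest being 515.

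The deepest mouse barcode was the same in the 3 Drop-seq libraries and shows the ceiling best. It had 33160, 15086 and 20061 counts in all at 25, 30 and 35 cycles. Igkc had 460, 43 and 49 of them, and the second transcript 431, 43 and 50. The ratio to the 25-cycle count was thus 0.093 and 0.107 for Igkc, against 0.455 and 0.605 for the total. This was not particular to the members: 26 transcripts had over 100 counts there at 25 cycles, and their ratios ranged from 0.089 to 0.278 at 30 cycles and from 0.105 to 0.294 at 35. Without this 1 barcode the share of Igkc in mouse cells was 1.63% in place of 1.52% at 30 cycles and 1.46% in place of 1.37% at 35.

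**Figure D5:**
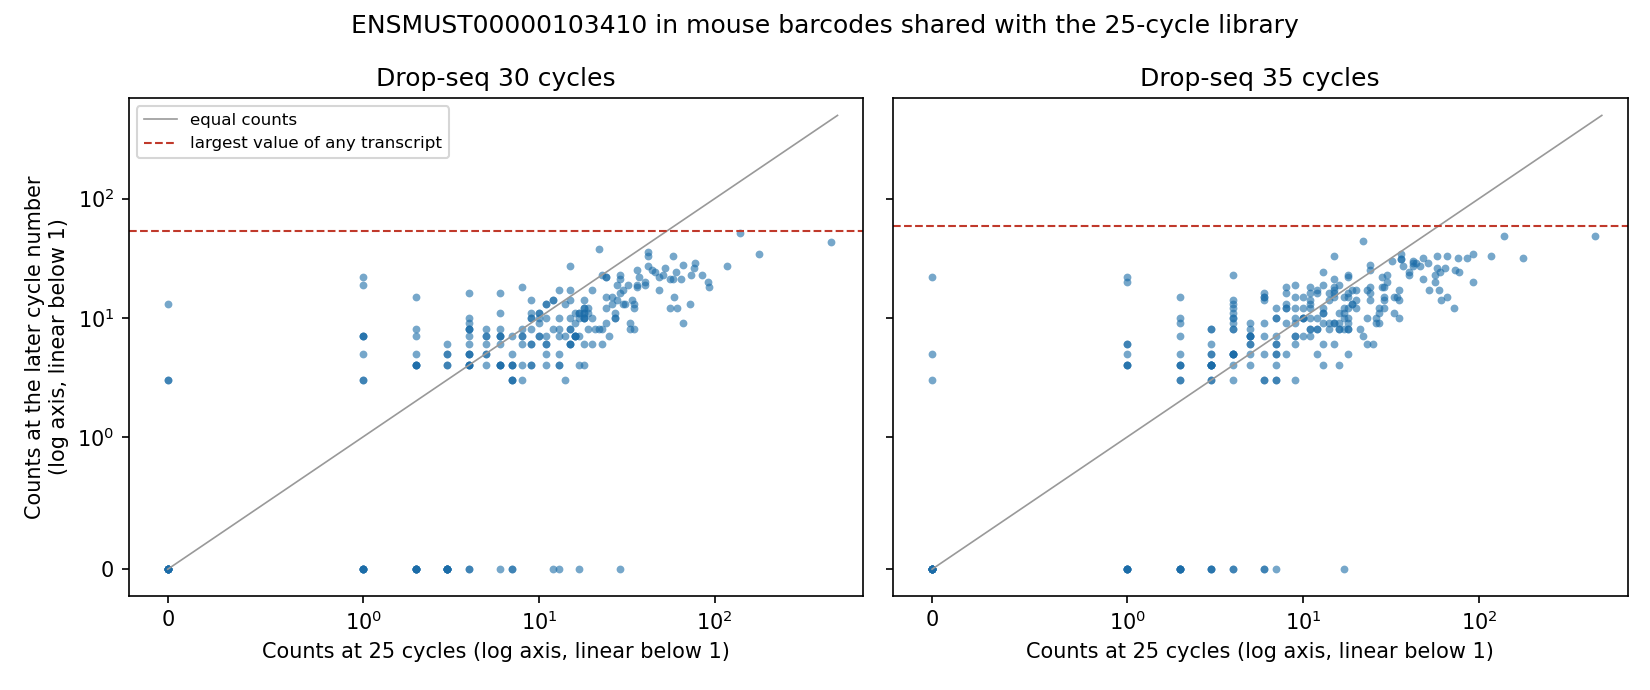
UMI counts of Igkc at 30 cycles (left) and 35 cycles (right) against its counts at 25 cycles, for the 253 and 268 stored barcodes that were mouse cells in both libraries, on log axes that are linear below 1. The grey line marks equal counts and the dashed line the largest stored value of any transcript, 53 and 59. Points at 51 or more counts on the horizontal axis all lie under the grey line.

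The 3 mouse barcodes with the most Igkc at 25 cycles are printed to show how close the stored sequences lie, each followed by the barcode with the most Igkc among those that differ at 1 base, with that base in capitals.

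first barcode: Gaagtaatca
its nearest: Aaagtaatca
next barcode: Tacaggcggt
its nearest: Cacaggcggt
last barcode: Aggtctaagc
its nearest: Gggtctaagc

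All 6 were mouse cells in all 3 Drop-seq libraries. The printed barcodes had 460, 179 and 139 counts of Igkc at 25 cycles, 43, 34 and 51 at 30, and 49, 32 and 49 at 35. Their neighbours had 58, 42 and 22 at 25 cycles, 33, 36 and 38 at 30, and 33, 27 and 44 at 35. Barcode and neighbour thus lay closer at 30 and 35 cycles than at 25. In total counts the neighbour stayed lower everywhere, for example 3304 against 33160 at 25 cycles and 1519 against 15086 at 30. Each printed barcode had 29, 27 or 30 stored neighbours at 1 mismatch in the 25-cycle library, the most that 10 bases allow being 30, so such sets are dense. Whether neighbours stand for 1 cell or for different cells was not tested.

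The number of PCR cycles was the labelled comparison within a platform. In 10X the share of Igkc in mouse cells was 0.640% at 30 cycles and 0.863% at 35, a log2 ratio of 0.43 (0.30 to 0.56). For the second transcript it was 0.422% and 0.638%, a log2 ratio of 0.60 (0.44 to 0.75). Both were higher at 35 cycles, and the median over the 348 mouse transcripts with at least 100 counts was 0.23. Neither reached 2-fold, as 11.5% of those transcripts did in that direction.

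In Drop-seq the movement was the other way, and small. Igkc went from 1.52% to 1.37%, a log2 ratio of -0.15 (-0.22 to -0.08), and the second transcript from 1.40% to 1.27%, a log2 ratio of -0.14 (-0.22 to -0.06). The median of 635 transcripts was -0.002 with an SD over transcripts of 0.25, and 23.0% of them lay below Igkc. With barcodes of at least 100 counts as cells, the log2 ratios were -0.0452 and -0.0382. Neither member was 2-fold higher, nor was any other transcript tested (0%). Barcodes that were mouse cells at both cycle numbers gave the same directions. In 271 of Drop-seq the share of Igkc went from 1.501% to 1.33%, and in 631 of 10X from 0.639% to 0.832%. These barcodes held most of the same counts, so this is not a separate check. In Drop-seq they held 2587 of 2652 Igkc counts at 30 cycles and 3225 of 3443 at 35. In 10X they held 614 of 722 and 1215 of 1565. Summed over those cells, counts of Igkc were 1.25 times as many at 35 cycles in Drop-seq, against 1.41 for the total, and 1.98 times in 10X, against 1.52.

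Platforms were set side by side at 30 cycles only. Igkc had a share of 1.52% in Drop-seq and 0.640% in 10X, a log2 ratio of 1.24 (1.12 to 1.36), and the second transcript 1.40% and 0.422%, a log2 ratio of 1.73 (1.59 to 1.87). Both members passed 2-fold higher in Drop-seq, as did 51.2% of 379 mouse transcripts, whose median was 1.30. The members were selected for the highest counts of Drop-seq, which favoured this direction. The members thus lay near the middle of all transcripts tested. With values below 3 left out of both libraries, the log2 ratio of Igkc was 0.47 and that of the second transcript 1.21. Platform, bead, counting and smallest stored value cannot be told apart here.

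Mouse counts in human cells were taken as a measure of mouse RNA that reached a droplet without a mouse cell. Such free RNA and cells that share a stored barcode cannot be told apart in it. Igkc was stored in 31.1% of 251 human cells at 25 cycles (25.4 to 37.2), 10.2% of 166 at 30 (6.08 to 15.9) and 20.0% of 165 at 35 (14.2 to 26.9) of Drop-seq. In 10X it was stored in 7 of 1006 human cells, 0.696% (0.280 to 1.43), at 30 cycles and 6 of 911, 0.659% (0.242 to 1.43), at 35. Median counts per human cell were 271, 243 and 352 for Drop-seq and 118 and 171 in 10X, close to those of mouse cells. Detection in human cells was thus lower than in mouse cells in all 5 libraries, by the largest ratio in 10X. The species call limits the mouse counts of a human cell, and Igkc was itself counted in that call. At similar totals, the direction of this difference was therefore largely set by the definition of the cells.

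Human light chain RNA gave the same measure in reverse, in 10X only. IGLC1, a human lambda light chain constant gene on chromosome 22 from 22895375 to 22895834 (hg38, GENCODE 44), was stored in 71.2% of human cells at 30 cycles and 95.7% at 35. In mouse cells it was stored in 0.372% and 3.86%. At 35 cycles it was thus found in mouse cells more often than Igkc was in human cells, and at 30 cycles less often. These rates are not on 1 footing. IGLC1 took 1.42% and 2.38% of the human counts in human cells, against 0.640% and 0.863% of mouse counts in mouse cells for Igkc. IGLL5 was stored in 0.744% and 5.22% of mouse cells. IGLC1 overlaps IGLL5 in the annotation, so reads could be split between them.

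Counts of Igkc in a human cell were few. The highest was 8, 7 and 13 for Drop-seq and 2 and 3 in 10X, and the highest of the second transcript 7, 7, 10, 2 and 3. Mean counts of Igkc per human cell were 4.32%, 4.10% and 7.996% of the mean per mouse cell for Drop-seq, and 1.55% and 0.803% in 10X. All mouse counts together stood at 4.47%, 1.03%, 1.44%, 0.705% and 0.430% by the same measure. As stored, Igkc thus stood close to other mouse RNA at 25 cycles and above it in the other 4 libraries, in 10X on 14 and 13 counts in 7 and 6 cells. With values below 3 left out, its share of mouse counts in human cells was 1.79 times that in mouse cells at 25 cycles, and no count was left in 10X at 30 cycles.

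Human cells with a member were deeper. Those with Igkc or the second transcript had median totals of 563, 933 and 930 counts for Drop-seq and 198 and 452 in 10X, while those with neither had 226, 229.5, 320, 117 and 171. The Spearman correlation of Igkc with the total over human cells was 0.490, 0.387 and 0.461 for Drop-seq and 0.074 and 0.119 in 10X. The part of depth in detection was not tested.

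As a share of the mouse counts, Igkc took 1.79% in human cells at 25 cycles, 0.966 times its share in mouse cells (0.801 to 1.15). It took 6.02% at 30 cycles and 7.57% at 35, which were 3.97 (3.04 to 5.11) and 5.54 (4.66 to 6.53) times its share in mouse cells. The 10X ratios were 2.20 (1.20 to 3.72) on 14 counts and 1.87 (0.993 to 3.20) on 13 counts. The counts came from 78, 17 and 33 human cells in Drop-seq and from 7 and 6 in 10X. An interval that treats each count as a separate draw leaves out the spread between these cells. For the second transcript the ratios were 0.950, 3.47, 4.82, 2.39 and 2.53, in the same order of libraries.

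The smallest stored value moved with these ratios. With values below 3 left out, the 25-cycle ratios became 1.79 for Igkc and 1.61 for the second transcript, and in 10X at 30 cycles no count of either was left in human cells. Of the 491, 257, 356, 125 and 229 transcripts with at least 100 counts over both sets of cells, 7.94%, 78.6%, 71.6%, 51.2% and 66.8% were listed at 0 in human cells. At least 2-fold higher in human cells were 8.35%, 15.6%, 12.6%, 11.2% and 18.8% of them. Neither member was among these at 25 cycles, both were at 30 and 35 cycles of Drop-seq and 30 cycles of 10X, and only the second transcript was at 35 cycles of 10X.

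The members were mostly stored together in human cells as well. Both were stored together in 72 of the 78 human cells with either at 25 cycles, 13 of 18 at 30 cycles and 29 of 34 at 35 cycles. The second transcript had 0.911 (0.699 to 1.19), 0.806 (0.544 to 1.19) and 0.810 (0.630 to 1.04) counts for each of Igkc there. The ratios in mouse cells of the same libraries were 0.926, 0.924 and 0.930. These intervals again treat both counts as independent, so they do not test a difference from mouse cells.

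Mixed barcodes, which passed 90% for neither species, numbered 159, 43 and 26 for Drop-seq and 188 and 208 in 10X. Igkc was stored in 63.5%, 39.5% and 34.6% of them in Drop-seq and in 25.5% and 50.0% in 10X. Its mean was 2.57, 2.81 and 2.85 counts per mixed barcode for Drop-seq and 0.569 and 1.30 in 10X. These means were 22.6%, 30.9% and 25.5% of the mouse cell mean for Drop-seq and 63.5% and 73.1% in 10X, against 22.0%, 20.0%, 20.2%, 58.7% and 59.0% for all mouse counts. In all mouse counts, mixed barcodes of Drop-seq thus held 20.0% to 22.0%, and those of 10X between 58.7% and 59.0% of what a mouse cell held.

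The share of mouse counts taken by Igkc in mixed barcodes was 1.03 (0.928 to 1.14), 1.54 (1.27 to 1.85) and 1.26 (0.989 to 1.59) times that in mouse cells of Drop-seq, and 1.08 (0.874 to 1.33) and 1.24 (1.08 to 1.41) times in 10X. The second transcript had ratios of 1.02, 1.61, 1.36, 1.21 and 1.25. Intervals for Igkc lay above 1 in Drop-seq at 30 cycles and in 10X at 35 cycles, and held 1 in the other 3 libraries. At 35 cycles of Drop-seq the ratio for Igkc was 1.97 when the number of cells was halved.

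Barcodes outside the cells held much of the counts of both transcripts. They held 71.1%, 57.4% and 64.9% of all Igkc counts in the Drop-seq libraries of 25, 30 and 35 cycles and 45.2% and 48.7% in 10X. For all mouse counts the same parts were 74.4%, 49.2% and 53.7%, and 39.5% and 39.2%. Igkc lay outside the cells less often than mouse counts in general at 25 cycles and more often in the other 4 libraries. A single outside barcode held little of it, with a mean of 0.055, 0.189 and 0.221 counts for Drop-seq and 0.059 and 0.109 in 10X.

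As a share of the mouse counts outside, Igkc took 1.57%, 2.17% and 2.26% for Drop-seq and 0.826% and 1.31% in 10X. These were 0.847 (0.823 to 0.871), 1.44 (1.37 to 1.51) and 1.66 (1.59 to 1.72) times its share in mouse cells of Drop-seq, and 1.29 (1.16 to 1.43) and 1.52 (1.42 to 1.63) times in 10X. The second transcript had ratios of 0.792, 1.37, 1.58, 1.31 and 1.42. As stored, both were therefore scarcer outside than in mouse cells at 25 cycles and more frequent in the other libraries. Outside barcodes of at least 20 counts that were called mouse held 556 of 696 Igkc counts in 10X at 30 cycles. At 35 cycles they held 1399 of 1751, and in Drop-seq 3942 of 17806, 1453 of 3819 and 3064 of 6786. Outside barcodes under 20 counts had Igkc shares of 1.54%, 2.31% and 2.34% for Drop-seq and 0.468% and 1.09% in 10X. In 10X at 30 cycles this share was below the 0.640% of mouse cells. Whether outside mouse barcodes were cells was not tested.

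Medians of the ratio of the outside share to that in mouse cells, over the transcripts tested, were 1.01, 0.890, 0.890, 0.901 and 0.875. Neither member reached 2-fold higher outside in any library, as 16.6%, 4.17%, 7.09%, 0.488% and 0.822% of the transcripts did. In the 25-cycle library, with values below 3 left out, the ratios were 1.03 for Igkc and 0.984 for the second transcript.

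Outside barcodes near a mouse cell held more Igkc in Drop-seq. Barcodes at 1 mismatch from mouse cells only had 1.99% (1.92 to 2.06), 5.41% (5.09 to 5.75) and 5.09% (4.87 to 5.32) of their mouse counts on Igkc at 25, 30 and 35 cycles. Those with no cell within 1 mismatch had 1.499% (1.47 to 1.52), 1.78% (1.72 to 1.85) and 1.84% (1.79 to 1.90). In 10X the same shares were 1.08% (0.845 to 1.36) and 0.809% (0.742 to 0.880) at 30 cycles, and 1.39% (1.19 to 1.61) and 1.33% (1.26 to 1.40) at 35. As stored, the intervals lay apart in all 3 Drop-seq libraries, whereas in 10X they overlapped at both cycle numbers. These intervals treat counts as independent, although every stored value was at least 3 at 30 and 35 cycles of Drop-seq. The part of the missing low values in these shares was not tested, and other transcripts were not compared in this way.

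Of the counts in barcodes near mouse cells only, 91.1%, 92.5% and 93.7% were mouse in Drop-seq, against 63.8% in each library for barcodes with no cell near. In 10X these were 46.2% and 47.7%, against 46.7% and 44.3%. Barcodes near mouse cells only in Drop-seq therefore held mostly mouse counts, which was not seen in 10X. Barcodes with no cell near still held 2775 counts of Igkc at 30 cycles and 4779 at 35 in Drop-seq, and their shares were above the 1.52% and 1.37% of mouse cells.

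The second transcript was seldom stored outside the cells without Igkc as well. Of the outside barcodes with the second transcript, 99.7%, 99.2% and 99.6% held Igkc in Drop-seq and all 217 and 529 did so in 10X. Where both were stored, counts were equal in 97.9%, 85.9% and 87.6% in Drop-seq and in 93.5% and 86.2% in 10X. The second transcript had 0.866, 0.882 and 0.887 counts for each of Igkc outside the cells for Drop-seq and 0.671 and 0.689 in 10X. The lower ratio in 10X was therefore seen both in mouse cells and outside the cells.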

How the data were processed

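Single-cell RNA was measured in 6 samples, and the 5 with a matrix were used. The sample labelled as a homotrimer TSO library came with read numbers only and was not used here. The authors deposited raw UMI counts, as whole numbers, for each Ensembl transcript in each barcode, with no normalization. According to the methods, reads were base called with Guppy, aligned by minimap2 against the transcripts of hg38 (human) and mm10 (mouse), and counted by UMI-tools in 10X. For Drop-seq the counting is given as UMI-tools or a set cover method, and which of them made these counts is not given in the sources used here, nor are the filters behind the smallest values or the 10-base barcodes. The depth was 2311090, 528502 and 827152 counts in the Drop-seq libraries of 25, 30 and 35 cycles and 494147 and 740994 in 10X. Cells sharing a stored barcode cannot be separated.

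Both transcripts and all lists were chosen with earlier results of these data known. With 1 library per group there was no test. Shares have exact Clopper-Pearson intervals and ratios of shares exact conditional binomial intervals, at 95%, which cover counting error only. Background values come from all mouse transcripts with at least 100 counts over both sets, with a pseudocount of 0.5 and a call at 2-fold. That step was tested on simulated data. The transcripts named are the members, the most abundant mouse transcripts, the most alike by Spearman correlation, and the identifiers within 100. Human names come from GENCODE 44. Alternatives changed the cells, the purity, the smallest value, the scaling and the thinning. No doublet caller was run, since mixed barcodes were counted. Python 3.11.15, numpy 2.4.6, pandas 2.3.3 and scipy 1.17.1 were used.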

Additional observations from a re-analysis of the deposited data

Results flagged for a closer look

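The share of both transcripts in mouse cells moved in opposite directions from 30 to 35 cycles on the 2 platforms. The log2 ratio of 35 over 30 cycles for Igkc (ENSMUST00000103410) was 0.43 in 10X and -0.15 in Drop-seq. For the second transcript (ENSMUST00000103328) it was 0.60 in 10X and -0.14 in Drop-seq. With barcodes of at least 100 counts as cells, the Drop-seq values were -0.0452 and -0.0382. In 10X the value of Igkc ranged from 0.20, by the median of ratios, to 0.67, with values below 3 left out, and that of the second transcript from 0.36 to 0.98 under the same alternatives. With 1 library per platform and cycle number the difference between platforms was not tested. Over all mouse transcripts tested the medians were 0.23 in 10X and -0.002 in Drop-seq.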

How the results depend on the processing

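Of 358 results recomputed under an alternative, 273 stayed within the interval or tolerance and 85 moved. None of the 46 log2 ratios changed sign. Of the 168 ratios to mouse cells, 10 came to lie on the other side of 1. With values below 3 left out these were, for Igkc, the outside ratio at 25 cycles (0.847 to 1.03) and the mixed ratio in 10X at 30 cycles (1.08 to 0.967), for the second transcript that mixed ratio (1.21 to 0.856), and for both the human ratios at 25 cycles and in 10X at 30 cycles. The human ratio at 25 cycles also passed 1 without the members in the species call (1.11 and 1.09) and, for Igkc, with the number of cells halved (1.01). No paired test between libraries was possible because each group was 1 library, and shared barcodes were compared as a description only. Values are given for Igkc and then the second transcript, unless 1 is named.

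The log2 ratio of 35 over 30 cycles in 10X was 0.58 and 0.76 with barcodes of at least 100 counts as cells, 0.67 and 0.98 with values below 3 left out, 0.62 and 0.79 by CPM over all counts, and 0.20 and 0.36 by the median of ratios. In Drop-seq it was -0.0452 and -0.0382 with barcodes of at least 100 counts. The log2 ratio of Drop-seq over 10X was 0.47 and 1.21 with values below 3 left out, an alternative added after seeing the data.

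Halving the number of cells brought the share in mouse cells to 1.33% and 1.24% in Drop-seq at 30 cycles, 1.19% and 1.11% at 35, and 0.571% and 0.374%, then 0.803% and 0.586% in 10X. It brought the ratio outside the cells to 0.878 and 0.824 at 25 cycles, 1.69 and 1.61 at 30 and 1.92 and 1.83 at 35 in Drop-seq, and the mixed ratio to 1.97 and 2.21 at 35 cycles. Barcodes of at least 100 counts gave a share of 1.498% and 1.39% and an outside ratio of 1.46 and 1.39 in Drop-seq at 35 cycles. Without the deepest mouse barcode, also added after seeing the data, the share was 1.63% and 1.501% at 30 cycles and 1.46% and 1.35% at 35.

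With values below 3 left out the share was 2.49% and 2.30% at 25 cycles, 1.10% and 0.605% in 10X at 30 cycles and 1.74% and 1.20% at 35. The outside ratio was then 1.03 and 0.984 at 25 cycles and 1.39 and 1.19 in 10X at 35. The human ratio was 1.79 and 1.61 at 25 cycles and 0 and 0 in 10X at 30 cycles, where the mixed ratio of the second transcript was 0.856.

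A purity of 95% gave a human ratio of 5.55 and 4.83 in Drop-seq at 30 cycles. A purity of 80% gave a mixed ratio of 1.16 and 1.19 at 25 cycles and of 1.99 for the second transcript at 30. Leaving both transcripts out when species were assigned gave a mixed ratio of 1.26 and 1.24 at 25 cycles.

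Thinned to 200 counts, cells with a member were 87.6% and 86.3%, 86.3% and 82.1%, and 82.3% and 80.9% in Drop-seq, and 49.1% and 33.9%, then 64.2% and 51.3% in 10X, and the Fano factor of Igkc was 2.98 at 35 cycles of Drop-seq. Without thinning they were 89.3% and 87.3%, 81.8% and 79.4%, and 86.7% and 85.4% for Drop-seq and 59.9% and 47.9% in 10X at 35 cycles. The coefficient of variation was then 2.23 and 2.27 at 25 cycles, and the Fano factors were 56.2 and 53.9, 7.63 and 7.85, and 7.44 and 7.41 in Drop-seq. The cause of these moves was not tested. The correlation of the members moved by less than 0.1 under all its alternatives. With medians of 117 and 171 counts per mouse cell, a missing value in 10X says little about a single cell.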
